A study of Mus musculus with 6 samples.

Results

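Complement is the cascade of blood and tissue proteins that tags surfaces for removal, and this account describes 9 of its genes in hippocampal RNA of WT and TG mice. The genes are C1qa, C1qb, C1qc, C3, C4b, C3ar1, C5ar1, Serping1 and Cd59a, taken by symbol from a table of 54532 genes, and all 9 were found once and passed the filter on low expression. WT mice are wild type littermates, and TG mice have the changes G82R and L85P in Slc1a2, knocked into the mouse gene by CRISPR/Cas9 in C57BL/6N eggs whose founders were then crossed to C57BL/6. The change is carried in the germline, and no promoter or Cre restricts it to a cell type. Each group has 3 libraries, WT1 to WT3 and TG1 to TG3. The age, sex and zygosity of the sequenced mice and any treatment other than genotype are not given in the sources used here. The study's behavioural tests, fear conditioning with electrical shock among them, used WT and TG mice of both sexes. Whether the sequenced mice came from that cohort is not stated. Values are FPKM, the fragments per unit of gene length and of mapped reads, and groups were compared with limma on log2(FPKM + 0.1) over 20952 genes. A call needs a Benjamini-Hochberg adjusted p under 0.05, and the share of genes at an unadjusted p under 0.05 is given beside it.

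C1q, built from the A, B and C chains encoded by C1qa, C1qb and C1qc, starts the classical pathway and in the brain is made mainly by microglia. It leads to cleavage of C4, and then of C3, whose fragments attach to surfaces and are recognised by phagocytes, and in the developing and diseased brain this route is known for the removal of synapses. C3ar1 and C5ar1 encode the receptors of the small fragments C3a and C5a, Serping1 encodes the C1 inhibitor, and Cd59a encodes a membrane protein that blocks the pore formed at the end of the cascade.

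Sequence bears on these genes in 2 ways. C4b has a close copy, C4a, 65209 bases away on chromosome 17, and the longest transcripts of both genes share 96.14% of 5367 aligned bases. Of all 50-base stretches of the C4b transcripts, 34.57% also occur in C4a. Below is the stretch of 60 coding bases within 1 exon where they differ most, from exon 21 of each gene, read from the GENCODE transcripts (GRCm38, minus strand, chr17:34735430-34735489 for C4b and chr17:34816086-34816145 for C4a), with the 13 differing bases in capitals.
C4b: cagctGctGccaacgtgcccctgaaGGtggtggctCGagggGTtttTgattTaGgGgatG
C4a: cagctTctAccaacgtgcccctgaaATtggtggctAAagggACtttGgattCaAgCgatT
A read from here can be assigned to 1 gene, whereas the longest identical run of 433 bases gives no such base. C4a received 11 to 26 reads per library against 730 to 1524 for C4b, so between 0.910% and 2.67% of the reads on both genes were counted for C4a. Cd59a shares 3.87% of its 50-base stretches with Cd59b, and the other 7 genes share none with another gene. No exon of the 9 genes overlaps an exon of another gene.

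C1qb, C1qc and C1qa lie side by side within 18675 bases of chromosome 4, on the minus strand, with 3616 bases between C1qb and C1qc and 2851 bases between C1qc and C1qa. The 3 neighbours had like profiles over the libraries, and the bases before 2 of their start sites are shown for this reason. RefSeq promoter sequences (GRCm38.p6) were found for 6 of the 9 genes, not for C1qa, C4b and Serping1. The sequences are minus strand, chr4:136886201-136886450 for C1qb and chr4:136893066-136893164 for C1qc, and bases downstream of either annotated start were left off.
C1qb: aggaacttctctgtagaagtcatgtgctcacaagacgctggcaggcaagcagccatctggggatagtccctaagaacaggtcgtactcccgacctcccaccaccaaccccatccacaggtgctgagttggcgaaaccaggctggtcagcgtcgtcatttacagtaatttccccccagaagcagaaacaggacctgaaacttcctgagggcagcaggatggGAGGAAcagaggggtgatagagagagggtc
C1qc: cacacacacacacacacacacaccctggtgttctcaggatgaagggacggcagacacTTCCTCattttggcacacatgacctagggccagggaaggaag
Capitals mark GAGGAA, the core of the site of the myeloid factor PU.1, which reads TTCCTC on the other strand. It starts 30 bases before the RefSeq start of C1qb and 193 bases before that of C1qc, and 23.25% of 32851 promoters hold it within 250 bases on either strand. The interferon-stimulated element (GAAA, any 2 bases, GAAA, in 2.98% of promoters), the gamma-activated site TTCNNNGAA (7.02%) and the NF-kB site (GGG, any 2 bases, TTTCC, 1.41%) were searched on both strands too. Over 250 bases before the RefSeq start, none of these 3 was found in C1qb, C1qc or C3. The interferon-stimulated element was found before Cd59a, as was GAGGAA, and the NF-kB site before C3ar1. A match of letters is not a bound site.

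The libraries held 16081281 to 18751057 reads on genes, recovered from the FPKM and the gene length. Slc1a2 had an FPKM of 193 ± 13.8 in WT and 215.5 ± 7.61 in TG mice (SD, n = 3 each), with all TG above all WT libraries (adjusted p = 0.789 in limma), and counts per gene do not show the amino acid changes. Hippocampal markers were present in every library, with a summed FPKM of the 10 genes of 293 to 352 in WT and 292 to 313 in TG mice. TG1 and TG2 stood apart by transcripts of choroid plexus, which secretes cerebrospinal fluid. The 18 genes of that list, with Ttr as the most abundant, summed to 85.0 to 114 in WT mice, to 1353 in TG1 and 4229 in TG2, but to 94.1 in TG3. WT1 stood apart from WT2 and WT3 by the 11 meningeal fibroblast genes, which summed to 58.9 against 30.3 and 28.9, and to 47.7 to 84.8 in TG mice. Igfbp2 alone made up 63.5 of the sum in TG2, and the other 10 genes summed to 40.1, 18.5 and 16.6 (WT1 to WT3) against 29.2, 21.3 and 29.2 (TG1 to TG3). Results that rest on these libraries are given with and without them.

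**Figure D1:**
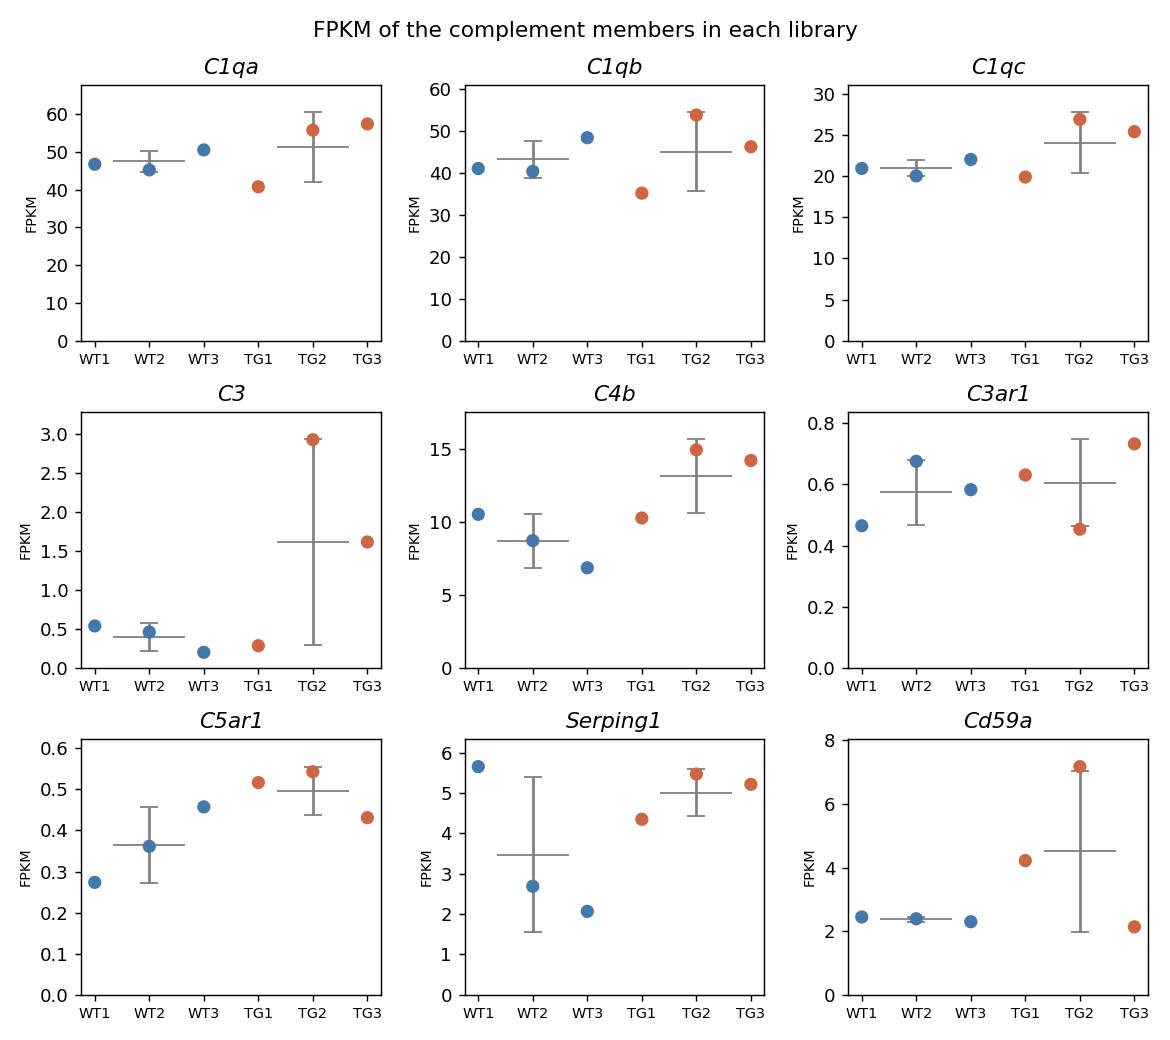
FPKM (y axis, from 0) of the 9 complement genes in each library (x axis), with WT in blue, TG in orange, and the mean and SD of each group in grey. The groups overlap in all 9 genes, and C3 and Cd59a have the widest spread among TG libraries relative to their means.

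No complement gene among the 9 was called higher or lower with limma at an adjusted p under 0.05, where 0.00477% of the genes tested were called in each direction. The smallest adjusted p of the 9 was 0.786. At an unadjusted p under 0.05, limma gave C4b, 1 of the 9, as higher and none as lower, against 3.13% and 2.78% of all genes. In none of the 9 did every TG library lie above or below every WT library, which held for 6.35% and 5.71% of all genes. All 9 log2 fold changes were above 0, from 0.04 in C1qb to 1.41 in C3, with a median of 0.38, while the median over all genes tested was -0.0020 and 49.6% were above 0. The genes were chosen with results of these libraries known, so this common sign is a description.

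The levels per length spanned 2 orders of magnitude. Over the 6 libraries the mean FPKM was 49.4 for C1qa, 44.1 for C1qb, 22.6 for C1qc and 10.9 for C4b. It was 4.24 for Serping1, 3.45 for Cd59a, 1.00 for C3, 0.590 for C3ar1 and 0.430 for C5ar1. In this order C1qa and C1qb overlapped in their ranges, as did Serping1 and Cd59a, Cd59a and C3, C3 and C3ar1, and C3ar1 and C5ar1. C1qb lay above C1qc, C1qc above C4b, and C4b above Serping1 in all libraries without overlap.

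The WT and TG libraries overlapped in all 3 chains of C1q, and TG1 had the lowest level of each. C1qa (ENSMUSG00000036887, chromosome 4 from 136895917 to 136898803 on GRCm38) gave FPKM values of 46.8, 45.2 and 50.5 (WT1 to WT3) against 40.8, 55.8 and 57.4 (TG1 to TG3). TG2 and TG3 were above the highest WT library and TG1 was below the lowest, so the TG libraries enclosed the WT range. Between the group means the log2 difference was 0.10 (standard error 0.135, 95% interval -0.22 to 0.41, adjusted p = 0.864 in limma). C1qb (ENSMUSG00000036905, chromosome 4 from 136880129 to 136886187) gave FPKM values of 41.0, 40.3 and 48.4 (WT1 to WT3) against 35.1, 53.8 and 46.2 (TG1 to TG3). Here TG2 alone exceeded the WT range, and TG3 lay within it. The log2 fold change was 0.04 (standard error 0.157, 95% interval -0.33 to 0.41, adjusted p = 0.953), and its sign turned to -0.10 without TG2.

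C1qc (ENSMUSG00000036896, chromosome 4 from 136889804 to 136893065) gave FPKM values of 21.0, 20.1 and 22.1 (WT1 to WT3) against 19.9, 27.0 and 25.5 (TG1 to TG3). As in C1qa, TG2 and TG3 were high and TG1 was just under the lowest WT value. On the log2 scale TG exceeded WT by 0.19 (standard error 0.117, 95% interval -0.09 to 0.46, adjusted p = 0.789). Chains of 1 complex could be compared within a library because FPKM are scaled by gene length. C1qa was 2.05 to 2.29 times C1qc, C1qb was 1.76 to 2.19 times C1qc, and C1qa was 1.04 to 1.24 times C1qb, so the order of the 3 chains was the same in all 6 libraries. Without TG1, which had the fewest C1q reads of the TG libraries, the log2 fold changes were 0.25 in C1qa (unadjusted p = 0.0164), 0.21 in C1qb (0.116) and 0.32 in C1qc (0.0062), with limma. The adjusted p without TG1 was 0.918 for C1qa and 0.731 for C1qc. Leaving out TG2 instead gave 0.03 in C1qa, -0.10 in C1qb and 0.10 in C1qc, and leaving out TG3 gave 0.0070, 0.01 and 0.14, so these values moved by over 1.5 times in both directions with single TG libraries, except in C1qc without TG3.

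Microglial genes, taken as a list median, had a profile like that of C1q over the TG libraries only. Among the WT libraries the list median was highest in WT1, and that of C1q in WT3. Of the 17 microglial genes, 10 had a log2 fold change above 0 and 7 below, where 49.6% of all genes were above 0. Relative to the WT mean on the log2 scale, the median of 17 microglial genes was 0.13, -0.11 and -0.05 (WT1 to WT3) against -0.23, 0.25 and 0.23 (TG1 to TG3). The median of the 3 C1q chains was -0.02, -0.07 and 0.09 (WT1 to WT3) against -0.22, 0.32 and 0.28 (TG1 to TG3). Both were lowest in TG1 and highest in TG2, whereas in Csf1r and Trem2 every TG library, TG1 included, lay above every WT library. The summed FPKM of the microglial list was 182 to 206 in WT and 166 to 247 in TG mice, no gene of it was at 0, and 2 of 17 genes, Csf1r and Trem2, were higher at an unadjusted p under 0.05 (3.13% of all genes). The part of these genes in the C1q values was not tested, and in bulk tissue fewer cells of a type and less RNA per cell cannot be told apart.

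C4b had the smallest p among the 9 genes, with higher values in TG2 and TG3. C4b (ENSMUSG00000073418, chromosome 17 from 34728380 to 34743882) encodes C4, which astrocytes of the adult brain express and which C1s cleaves after C1q has bound. FPKM values were 10.5, 8.71 and 6.85 (WT1 to WT3) against 10.3, 14.9 and 14.2 (TG1 to TG3). TG2 and TG3 were above all WT libraries, while TG1 lay just below WT1. The mean was 8.69 ± 1.83 in WT and 13.1 ± 2.51 in TG mice (SD, n = 3 each). The log2 fold change of 0.59 is a 1.51-fold difference (standard error 0.191, 95% interval 0.14 to 1.04, unadjusted p = 0.0165 and adjusted p = 0.786 in limma). A two-sided exact permutation test gave p = 0.2, where 3 libraries against 3 cannot go below 0.1. Leaving out single libraries kept the log2 fold change between 0.43 without WT3 (unadjusted p = 0.0522) and 0.76 without TG1 (0.00541).

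The value of C4b rests on how reads shared with C4a were counted, since a rule for reads that match several genes is not given in the sources used here. C4a itself had an FPKM of 0.149 ± 0.0463 in WT and 0.184 ± 0.0537 in TG mice (SD, n = 3 each), or 0.19 apart on the log2 scale (adjusted p = 0.907).

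C3, the central protein of the cascade, was low in 4 libraries and high in TG2 and TG3. C3 (ENSMUSG00000024164, chromosome 17 from 57203970 to 57228136) gave FPKM values of 0.536, 0.457 and 0.197 (WT1 to WT3) against 0.283, 2.93 and 1.61 (TG1 to TG3). These values rest on 51, 38 and 19 reads in the WT and 23, 270 and 150 reads in the TG libraries. TG2 and TG3 thus exceeded every WT library, and TG1 lay inside the WT range. Between the group means the log2 difference was 1.41, a 2.66-fold difference (standard error 0.728, 95% interval -0.30 to 3.12, adjusted p = 0.789 in limma). Without TG1 the log2 fold change was 2.27 (unadjusted p = 0.00177, adjusted p = 0.397), and without TG2 it was 0.78 (unadjusted p = 0.293). C4b was 19.0 to 34.7 times C3 in WT mice, 36.3 times in TG1, but 5.10 times in TG2 and 8.79 times in TG3.

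The high C3 of TG3 came with choroid plexus genes at the WT level, as their median difference from the WT mean was -0.04 in TG3, 3.09 in TG1 and 4.35 in TG2. TG3 alone against the 3 WT libraries gave a log2 fold change of 1.86 for C3 and 0.72 for C4b, with the lone library assumed to vary like the WT group. The 22 interferon-response genes were above the WT mean by a median of 0.32, 0.98 and 0.56 in TG1 to TG3, and the 5 T and NK cell genes tested by 0.63, 1.26 and 0.61. Of the interferon list 12 of 22 genes, and of the T and NK list 1 of the 5 tested, were higher at an unadjusted p under 0.05 (3.13% of all genes), with summed FPKM of 61.0 to 75.6 and 0.761 to 0.835 in WT mice and 84.3 to 138 and 1.55 to 3.50 in TG mice. No gene of these lists was at 0 in all libraries, and their part in the C3 and C4b values was not tested.

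The 2 anaphylatoxin receptors were the least abundant of the 9 genes, and in both the WT and TG libraries overlapped. C3ar1 (ENSMUSG00000040552, chromosome 6 from 122847138 to 122856161) gave FPKM values of 0.465, 0.676 and 0.583 (WT1 to WT3) against 0.631, 0.454 and 0.733 (TG1 to TG3), on 35 to 57 reads. The highest and the lowest value were both from TG mice. The log2 fold change was 0.06 (95% interval -0.53 to 0.64, adjusted p = 0.961 in limma). C5ar1 (ENSMUSG00000049130, chromosome 7 from 16246743 to 16259540) gave FPKM values of 0.274, 0.361 and 0.457 (WT1 to WT3) against 0.516, 0.543 and 0.431 (TG1 to TG3). TG1 and TG2 were above the WT libraries and TG3 was not, with 13 to 25 reads behind each value. On the log2 scale TG exceeded WT by 0.38 (95% interval -0.23 to 0.99, adjusted p = 0.789). At this depth the intervals include differences of more than 1.5-fold in either gene.

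Serping1, the inhibitor of C1r, C1s and the MASP proteases, was higher in the TG libraries than in WT2 and WT3 but not than in WT1. Serping1 (ENSMUSG00000023224, chromosome 2 from 84765387 to 84775444) gave FPKM values of 5.65, 2.69 and 2.07 (WT1 to WT3) against 4.35, 5.47 and 5.22 (TG1 to TG3). WT1 had the highest value of all 6 libraries, and the TG libraries lay close together. The mean was 3.47 ± 1.92 in WT and 5.01 ± 0.588 in TG mice (SD, n = 3 each), which differ on the log2 scale by 0.64 (standard error 0.331, 95% interval -0.14 to 1.42, adjusted p = 0.789 in limma). Without WT1 the log2 fold change was 1.05 (unadjusted p = 0.000583, adjusted p = 0.326), and without WT3 it was 0.345 (0.296 unadjusted). Meningeal genes were also high in WT1, with a median difference from the WT mean of 0.82, -0.25 and -0.35 (WT1 to WT3) against 0.53, -0.07 and 0.60 (TG1 to TG3). Of the 11 meningeal genes, all were detected and 1, Igfbp2, was higher at an unadjusted p under 0.05 (3.13% of all genes). Their part in the Serping1 values was not tested.

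Cd59a was the only gene of the 9 with its lowest value in TG3. Cd59a (ENSMUSG00000032679, chromosome 2 from 104095801 to 104115354, plus strand) gave FPKM values of 2.45, 2.39 and 2.30 (WT1 to WT3) against 4.22, 7.18 and 2.14 (TG1 to TG3). The WT libraries agreed closely (mean 2.38 ± 0.0750, SD, n = 3), and TG1 and TG2 were well above them. Between the group means the log2 difference was 0.74 (standard error 0.376, 95% interval -0.15 to 1.62, adjusted p = 0.789 in limma). The order TG2, TG1, TG3 was that of the choroid plexus genes, of which 10 of 18 had an unadjusted p under 0.05 on the higher side (3.13% of all genes), with no gene at 0. Among these 10, Tmem72 (mean 0.0381 FPKM in WT and 1.495 in TG mice) passed the filter on low expression through its TG values. Without TG3 the log2 fold change of Cd59a was 1.18 (unadjusted p = 0.00141, adjusted p = 0.323 in limma), and TG3 alone against WT gave -0.15. With the choroid plexus score as a covariate it was -0.17 (unadjusted p = 0.299 in limma). That score was high in TG1 and TG2 but not in TG3, so this fit rests largely on TG3 against WT. It cannot separate genotype from choroid plexus content. The part of the choroid plexus genes in the Cd59a values was not tested.

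**Figure D2:**
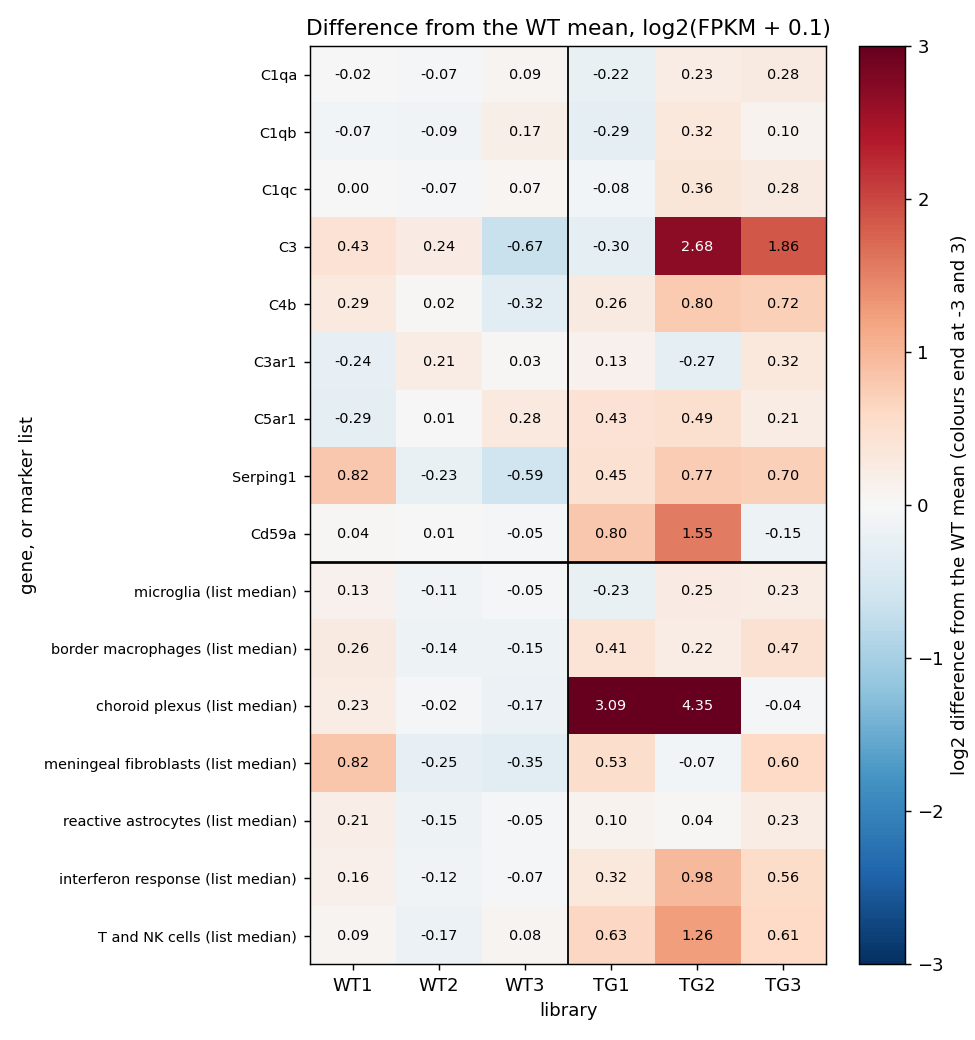
Difference of each library (columns) from the WT mean on the log2(FPKM + 0.1) scale, for the 9 genes and for the median of 7 marker lists (rows), with colours ending at -3 and 3. C3 reads 2.68 in TG2 and 1.86 in TG3, Cd59a reads 1.55 in TG2 and -0.15 in TG3, and the choroid plexus list reads 4.35 in TG2 and -0.04 in TG3.

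The other genes of the cascade were compared over lists of 51 genes outside the 9, of which 30 passed the filter on low expression. None was called at an adjusted p under 0.05, and at an unadjusted p under 0.05 limma gave 1 of the 30 as higher and 1 as lower, against 3.13% and 2.78% of all genes. The median log2 fold change of the 30 genes was 0.13, and 23 were above 0 and 7 below, where 49.6% of all genes were above 0. Itgb2, the beta chain of complement receptor 3, gave FPKM values of 2.27, 1.60 and 1.89 (WT1 to WT3) against 2.34, 3.18 and 3.07 (TG1 to TG3). Every TG library was above every WT library, TG1 by the least. The log2 fold change was 0.55 (standard error 0.174, unadjusted p = 0.0147, adjusted p = 0.786). In limma the unadjusted p of Itgb2 was 0.0526 without TG2, 0.05004 without TG3 and 0.0737 with the choroid plexus score as a covariate. Itgam, the alpha chain of the same receptor, had a log2 fold change of 0.04 (adjusted p = 0.952), and 68.67% of its exonic bases overlap Gm49368, so its reads are uncertain.

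C8g, which encodes the gamma chain of C8 in the pore-forming complex, was the only gene of the lists at an unadjusted p under 0.05 on the lower side. FPKM values were 1.30, 1.16 and 1.47 (WT1 to WT3) against 0.762, 0.822 and 0.742 (TG1 to TG3), on 18 to 41 reads. All TG libraries lay below all WT libraries, and the log2 fold change was -0.68 (standard error 0.163, unadjusted p = 0.00368, adjusted p = 0.786 in limma). Over the alternative settings other than TG3 alone against WT, the unadjusted p of C8g ran from 0.00122 to 0.0221 in limma or limma-voom. The adjusted p ran from 0.520 to 0.9998. These fits reuse the same libraries. Of the 7 terminal components C7 and C8g passed the filter, and C7 had a log2 fold change of -0.31 (adjusted p = 0.854).

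By role, 12 of 18 genes of the classical and lectin pathways passed the filter, with a median log2 fold change of 0.19. Apart from the 9 genes, C1ra, the protease that activates C1s, had 0.766 ± 0.492 and 1.44 ± 0.560 FPKM (SD, n = 3 each, log2 fold change 0.93, adjusted p = 0.789), and Masp1 had 1.20 ± 0.0716 and 1.09 ± 0.0940 (-0.12, adjusted p = 0.841). Of the C3 and alternative pathway list, 2 of 4 genes passed. Cfp, the stabiliser of the C3 convertase, was more abundant than C3, at 2.84 ± 0.447 and 3.26 ± 0.726 FPKM (log2 fold change 0.18, adjusted p = 0.809). Of 9 receptors 6 passed, with a median of 0.18.

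Among the 22 regulators 17 passed the filter, with a median log2 fold change of 0.12. The most abundant were Clu, which encodes clusterin, with 252 ± 38.0 and 255 ± 28.5 FPKM (SD, n = 3 each, log2 fold change 0.02, adjusted p = 0.974), and Sez6l2, a neuronal protein with complement-control domains, with 92.9 ± 5.39 and 90.9 ± 4.96 (-0.03, adjusted p = 0.927). Cr1l, the mouse membrane regulator Crry, had 1.66 ± 0.0338 in WT and 1.95 ± 0.204 in TG mice, and its 3 TG libraries were above the WT libraries (log2 fold change 0.21, adjusted p = 0.789). Cd59b, the copy of Cd59a, had 0.279 ± 0.109 and 0.431 ± 0.258 FPKM on 4 to 16 reads.

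**Figure D3:**
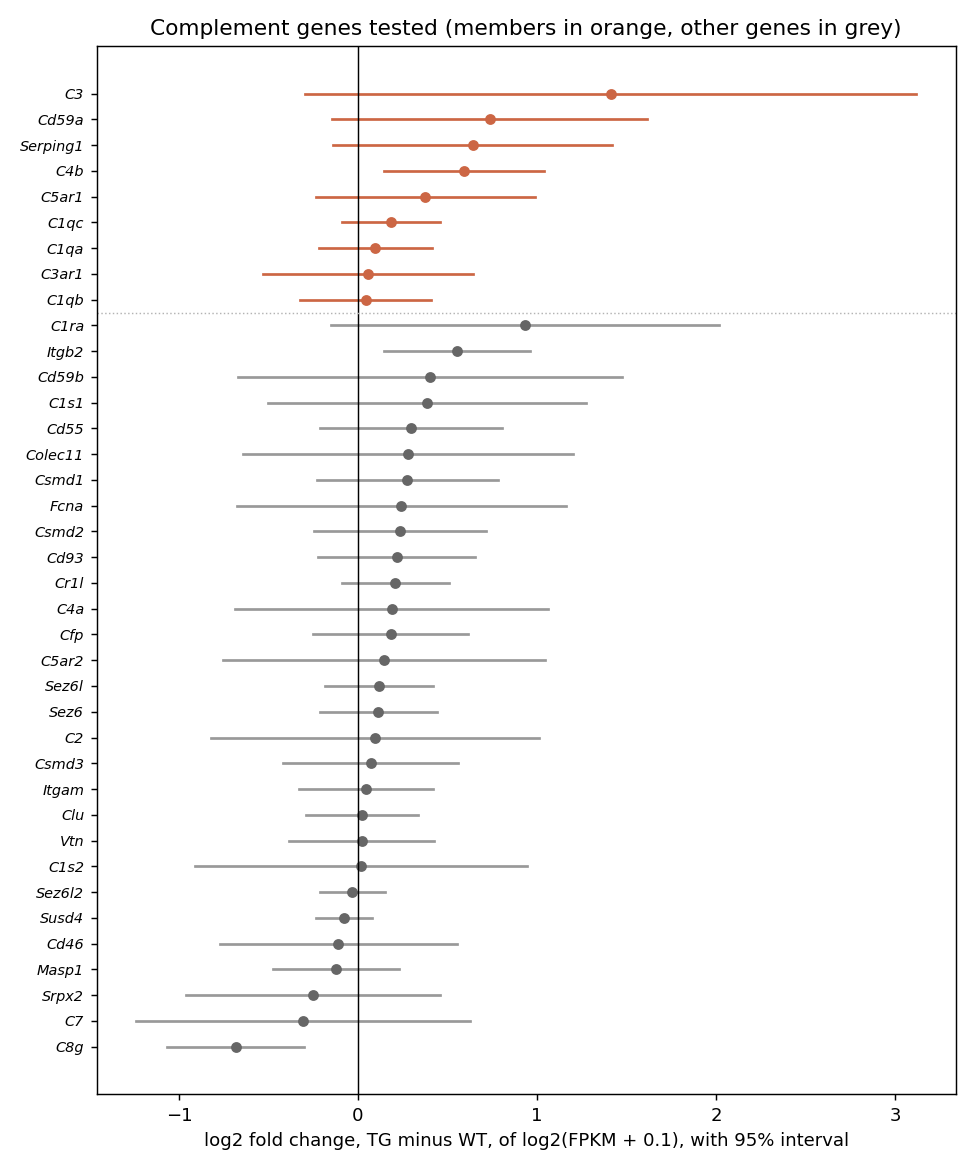
Log2 fold change, TG minus WT, of log2(FPKM + 0.1) with its 95% interval (x axis) for complement genes that passed the filter (y axis), 1 of the 39 not being shown, with the 9 genes in orange above the dotted line and the others in grey. The intervals of C4b and Itgb2 lie above 0 and that of C8g below it, and those of the other genes shown include 0.

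The genes closest to these profiles were sought among 13318 genes averaging 1 FPKM or more, by the root mean square difference of centred log2 values over the 6 libraries. For the mean of the 3 C1q chains these were Cd38, Gtf2e2, Folh1, Hdhd3 and Stk17b, at 0.0337 to 0.0609, where the profile itself had a root mean square of 0.1725. For C4b they were Gm10145, Adgre1, Parp3, Bin2 and Abca9, at 0.119 to 0.136 for a profile of 0.384. For Serping1 they were Coch, Fmo2, Ifitm3, Icam1 and Slc6a20a, at 0.114 to 0.221 for a profile of 0.539. For C3 the nearest was Igha, the constant region of IgA, at 0.444 for a profile of 1.19, with 2.43, 1.74 and 1.86 FPKM (WT1 to WT3) against 1.25, 18.7 and 11.8 (TG1 to TG3). The others were Gm12191, Rpl30-ps10, Cd52 and Gm24564, at up to 0.551. Of the 4 profiles, that of C3 was matched least closely in log2 units.

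The calls at an unadjusted p depended on single libraries. Without TG1, limma gave 4 of the 9 genes higher at an unadjusted p under 0.05 (C1qa, C1qc, C3 and C4b), against 2.51% of all genes. Without WT1 there were 2 (C4b and Serping1, against 3.66%), without WT2 there was 1 (C4b, 3.15%) and without TG3 there was 1 (Cd59a, 2.81%). Without TG2 or WT3 there was none (2.17% and 2.09% of all genes). TG3 alone against WT gave 2 (C1qc and C3, 1.99%), the choroid plexus score as a covariate gave none (1.58%), limma-voom on recovered reads gave 2 (C4b and Serping1, 3.88%) and the replicate number as a block gave 1 (C4b, 3.03%). None of the 9 reached an adjusted p under 0.05 in these fits.

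**Figure D4:**
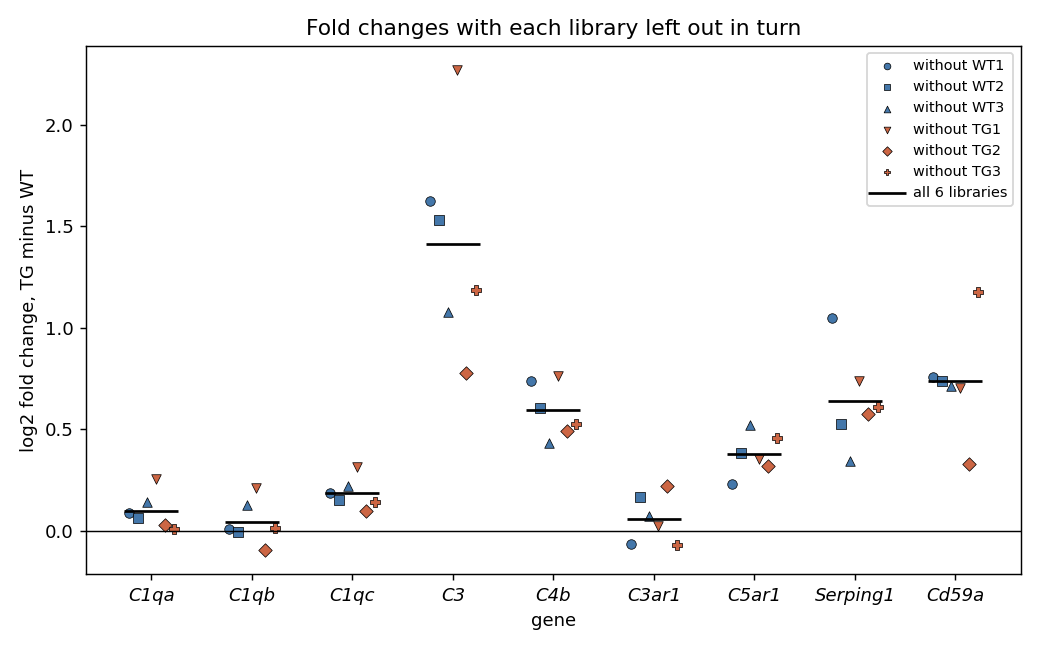
Log2 fold change, TG minus WT (y axis), of the 9 genes (x axis) in all 6 libraries (black line) and with each library left out in turn (blue symbols for a WT library, orange for a TG library). C3 moves most, from 0.78 without TG2 to 2.27 without TG1, and C1qb and C3ar1 cross 0.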

How the data were processed

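The authors counted reads per gene with HTSeq and deposited FPKM for each library, computed from the read count and gene length, with GRCm38 (mm10) named in the submitters' processing notes. The aligner, the strand setting and the rule for reads matching several genes are not given in the sources used here. Trizol and NEBNext reagents are given in the methods, but RNeasy and SMARTer kits in the labels. Of the gene identifiers 54409 were in GENCODE M21, 53499 with the same start and end. Every FPKM above 0 was a whole multiple of 1 read (tolerance 0.05 reads, 100% of values), and 3 reads in 1 kb gave an FPKM of 0.160 to 0.190. Intervals and this limit cover the spread of these libraries or counting only. The p-values measure only the spread between these libraries. No 2 libraries held identical values. The labels number the libraries within each group, each is taken here as 1 mouse, and pooling is not mentioned.

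Genes averaging 0.1 FPKM or more were fitted with limma 3.58.1 (R 4.3.3; lmFit, eBayes with trend) on log2(FPKM + 0.1), without covariate or block, with Benjamini-Hochberg adjustment over all genes. This scale understates changes of low genes. The filter used the mean over all libraries, so a low gene could pass through TG alone. Tmem72 of the choroid plexus list and Ms4a7 of the border macrophages (mean 0.0722 FPKM in WT and 0.179 in TG mice) did so. The fit was run on simulated counts with the same dispersion for every gene and no difference in tissue content between libraries. It was therefore not tested on the spread seen here. The genes, lists and alternatives were chosen with earlier results of these data known. The named genes are the 9 members, other complement genes at an unadjusted p under 0.05, copies of a member, the 2 most abundant other genes of each complement list, the 1 or 2 most abundant of each marker list and the 5 nearest profiles. Cr1l, Csf1r, Trem2, Hc, Itgax, Tmem72 and Ms4a7 were named after their values were seen. Of the complement lists, most genes are counted without being named in the text, among them 2 that are not reported here. Transcripts were aligned with Biopython 1.88 in Python 3.11.15.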

Additional observations from a re-analysis of the deposited data

How the results depend on the processing

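Over 17 alternatives, none of the 9 genes or of the complement lists was called at an adjusted p under 0.05 in either direction, with limma or with limma-voom on recovered reads. At an unadjusted p under 0.05, voom gave 2 of the 9 genes and 4 of the listed genes as higher, against 3.88% of all genes. With all libraries on log2 FPKM these counts were 1 and 2 (3.13% of all genes). A choroid plexus score as a covariate gave 0 and 0 (1.58%). With single libraries left out, the counts ranged from 0 to 4 and from 0 to 5, against 2.09% to 3.66% of all genes. The median log2 fold change of the 9 genes then ranged from 0.23 to 0.46. This median was 0.18 with a pseudocount of 1 and 0.59 with a minimum mean FPKM of 1, which removes C3ar1 and C5ar1. Of 185 single values, 7 changed sign. C1qb was -0.0109 with the covariate, -0.0053 without WT2 and -0.10 without TG2, C3ar1 was -0.06 without WT1 and -0.0725 without TG3, and Cd59a was -0.17 with the covariate and -0.15 in TG3 alone. With single libraries left out C1qb reached 0.2098 and C3ar1 0.2224. The cause was not tested.

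The correlations of deviations between same-numbered libraries were 0.0125, 0.0434 and 0.00314, and between differently numbered ones -0.0274 to 0.0159. All were near 0, but such values cannot show whether the mice were paired by litter or batch. With the replicate number as a block, 1 of the 9 genes was higher at an unadjusted p under 0.05, against 3.03% of all genes. The median log2 fold change was 0.38, as without the block. C3ar1, C5ar1 and C8g rest on at most 57 reads per library, which limits their precision.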

Other observations

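Of the complement lists, 21 genes had a mean FPKM under 0.1 and were not tested. Cfb, the protease subunit of the alternative C3 convertase, had 3 reads in each WT library and 7, 5 and 6 in TG1 to TG3, but 79.5% of its exonic bases overlap Gm20547. Itgax, the alpha chain of complement receptor 4, had 3, 0 and 7 reads in the WT and 6, 22 and 10 in the TG libraries. Hc, which encodes C5, had 11, 6 and 1 reads in the WT and 1, 1 and 2 in the TG libraries, so the transcript of the ligand of C5ar1 was near the limit of detection in 4 of 6 libraries.

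Among the other marker lists, the median log2 fold change was 0.35 in border macrophages, with 1 of 8 genes higher at an unadjusted p under 0.05, and 0.13 in reactive astrocytes, with 3 of 16 higher (3.13% of all genes were higher and 2.78% lower). It was 0.12 in endothelium, with 2 of 10 higher, and 0.14 in ependyma, where 3 of 8 genes were lower and none was higher. In oligodendrocytes it was -0.30, with 1 of 10 lower and 3 with every TG below every WT library (5.71% of all genes). In the hippocampal list it was -0.11, with 1 of 10 lower. No gene had an unadjusted p under 0.05 in astrocytes (median 0.02), neurons (0.03), pericytes and smooth muscle (0.04), blood cells (-0.13) or neutrophils and monocytes (-0.32). Among the most abundant genes of these lists, WT and TG means were close in Gfap (82.9 and 91.6 FPKM), Aldoc (274 and 255), Slc17a7 (274 and 292) and Mbp (259.5 and 249.5). They were further apart in Stab1 of the border macrophages (1.84 and 2.35, every TG above every WT library). Means were also further apart in Foxj1 of the ependyma (3.27 and 4.22), but there only TG2 lay above the WT range. No gene of any of these lists had an adjusted p under 0.05 in limma.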
